A study of Mus musculus with 10 samples.

Results

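Organic ion and ABC transporter genes were compared in whole mouse liver between 5 control libraries and 5 libraries labelled Alk1-HEC-KO. The genes are all protein-coding genes with symbols of the Slc22a, Slco and Abca to Abcg series that held at least 10 estimated counts summed over the 10 libraries. Of the 55385 genes in the deposited tables, 89 had such symbols, 64 met the minimum and are called members here, and 25 did not, among them 12 at 0 counts in every library. The 64 members comprise 14 Slc22, 8 Slco, 11 Abca, 9 Abcb, 9 Abcc, 4 Abcd, 4 Abce and Abcf, and 5 Abcg genes. Frozen liver was homogenised, total RNA was isolated, and libraries were read on the BGISeq-500 sequencer. The control group has the genotype Ctrl and the other group the genotype KO, and the series names Alk1, also called Acvrl1, as the knocked-out gene. The letters HEC are not spelled out, and strain, age, sex, treatment, the deleted part of the gene and any Cre driver are not given in the sources used here. Whether each library is its own animal is not stated, so a p-value here weighs a difference only against the variation among the 10 libraries.

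The mean level of the targeted gene was not lower in the libraries labelled Alk1-HEC-KO. Acvrl1 (chromosome 15, 101128522 to 101145336, GRCm38), the endothelial receptor ALK1, averaged 0.669 ± 0.331 TPM in controls and 1.36 ± 0.331 TPM in the other group (SD, n = 5 each), where TPM is a transcript level scaled for gene length and sequencing depth. Its log2 fold change was 0.99 ± 0.32 (SE) with an adjusted p of 0.336 by the edgeR quasi-likelihood test. The difference is thus not called at an adjusted p under 0.05. A level for the whole gene in whole liver cannot show whether part of the gene is deleted in some cells. The second group is therefore called the labelled knockout libraries. All 10 libraries held transcripts of the Y-linked gene Ddx3y, at 6.11 to 12.2 TPM. Library totals ran from 20.91 to 21.56 M (mega) counts. In whole tissue, fewer cells of a type and less RNA per cell cannot be told apart.

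The Slc22 family carries small organic cations, zwitterions and anions across the plasma membrane, and in liver its members take up drugs, monoamines, thiamine and carnitine from blood. The Slco family encodes the organic anion transporting polypeptides, which bring bile acids, bilirubin conjugates, steroid conjugates and many drugs into hepatocytes. ATP-binding cassette (ABC) proteins use ATP to move substrates out of cells or between compartments. In hepatocytes, several of them pump bile salts, phospholipid, sterols and conjugates into the bile canaliculus, while others serve mitochondria, peroxisomes, lysosomes or the ribosome.

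The upstream sequences of Slc22a3 and of Slco1b2, a member that edgeR did not call (adjusted p 0.235), are shown because they hold unlike features. Each is the 250 bases before the RefSeq start site (GRCm38.p6), for Slc22a3 at chr17:12507705-12507954 on the minus strand and for Slco1b2 at chr6:141629268-141629517 on the plus strand. Capitals mark, in Slc22a3, a tandem repeat of the unit GCAGGT and, in Slco1b2, the TATA box letters TATAAA and a match to the TCF letters described next.
Slc22a3: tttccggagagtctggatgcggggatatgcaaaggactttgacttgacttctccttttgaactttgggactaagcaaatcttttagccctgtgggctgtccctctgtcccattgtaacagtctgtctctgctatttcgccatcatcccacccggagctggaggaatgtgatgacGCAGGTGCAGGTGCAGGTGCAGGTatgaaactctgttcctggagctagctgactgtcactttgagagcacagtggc
Slco1b2: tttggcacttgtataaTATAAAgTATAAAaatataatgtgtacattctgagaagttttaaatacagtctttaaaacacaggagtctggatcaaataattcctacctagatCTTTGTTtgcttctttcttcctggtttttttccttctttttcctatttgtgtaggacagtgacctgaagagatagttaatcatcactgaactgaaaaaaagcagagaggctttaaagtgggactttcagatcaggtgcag
The Slc22a3 stretch held 4 copies of its 6-base unit over 24 bases, ending 52 bases before the start site, and its GC content was 51.2%. Any 6-base unit repeated at least 4 times in a row occurred upstream of 18 of 27025 mouse genes (0.0666%), and of 1 of the 50 members that the RefSeq table holds. The unit length and least number of copies searched are those of the Slc22a3 repeat, so the share is a description. The Slco1b2 stretch had a GC content of 33.6%, with TATAAA in 2 places, both near the end of the stretch farthest from the start site. Whether these letters act as a TATA box was not tested.

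The letters CAAAG preceded by 2 bases that are each A or T, a core that TCF and LEF factors are known to bind, were searched on both strands together with TATAAA. A match to the TCF letters stood upstream of 4 of the 50 members (8.0%) and of 14.9% of all genes. These 4 were Slco1b2, Abcb1a, Abcc5 and Slco1c1. TATAAA stood upstream of 8 members (16.0%) and of 13.0% of all genes. Neither stood in the Slc22a3 window. The lack of a match in such a window says nothing of the factor, and the motifs were not tested against expression.

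Across the members, 2 were lower in the labelled knockout libraries and none was higher at an adjusted p under 0.05 (edgeR quasi-likelihood test, Benjamini-Hochberg over all 12872 tested genes). The organic cation transporter Slc22a3 was among them. A count filter left 55 members tested and 9 untested. Over all genes tested, 0.171% were called lower and 0.186% higher. Of the 55 members, 39 had a log2 fold change below 0 and 16 above, with a median of -0.15, while all genes split into 6389 below and 6483 above with a median of 0.00. Scaling by library totals alone, which moved the median of all genes to 0.07, gave 33 members below 0 and 22 above. The share of members below 0 was then 60.0%, against 70.9% in the main fit. For all genes that share was 36.95%, against 49.63% in the main fit. At an unadjusted p under 0.05 there were 7 members lower and 2 higher (3.42% and 5.03% of all genes). Values in log2 CPM are counts scaled to the library total after adjustment by TMM factors, the scaling of the main fit. On this scale the groups did not overlap for 3 members that were lower, Slc22a3 and Abcb1b among them (0.73% of all genes). No member that was higher lacked overlap (0.948% of all genes).

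The summed level of the 64 members ran from 1372 to 1951 TPM in controls, against 954 to 1578 TPM in labelled knockout libraries, so the groups overlapped. The Slc22 and Slco families made up most of it. Summed Slc22 levels were 507 to 637 TPM against 375.5 to 448 TPM, with no overlap, and Slco levels were 301 to 548 TPM against 139 to 371 TPM, which overlap. Such sums are carried by the most abundant members, so a lack of overlap does not hold for each gene of a family. The sums of the other families overlapped too. Labelled knockout library 5 had the lowest sum of members, and it had the lowest log2 CPM of the 10 libraries for 24 of the 55 tested members (43.6%, against 19.6% over all genes). The same library had 13331 TPM of Saa1, an acute phase protein, the highest of the 10. Control library 2 was the highest for 15 members (27.3%, against 16.8% over all genes). The part of these libraries in the differences was not tested beyond leaving them out.

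**Figure D1:**
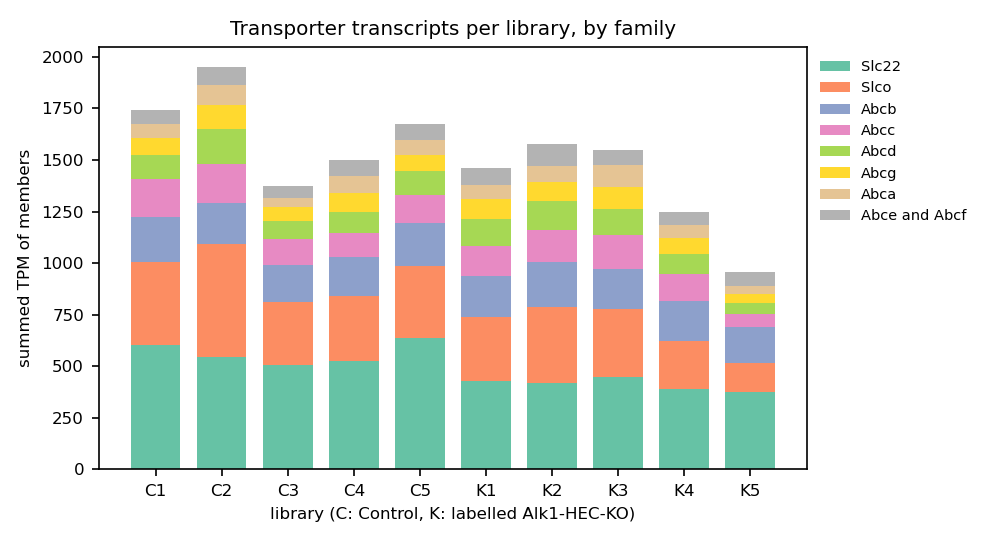
Summed TPM of all 64 members in each library, split by family, for 5 control libraries (C) and 5 labelled Alk1-HEC-KO libraries (K). The lowest Slc22 segment stands at 507 TPM in controls and the highest at 448 TPM in the labelled knockout libraries, and K5 has the lowest total at 954 TPM.

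Of the organic cation transporters, Slc22a3 (OCT3) is a broadly expressed carrier of monoamines and other cations. Slc22a2 (OCT2), a kidney carrier, held 1 count in all 10 libraries together and is no member.

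Slc22a3 (chromosome 17, 12418960 to 12507704, minus strand) was at 1.20, 2.11, 0.56, 0.88 and 0.90 TPM in control libraries 1 to 5 and at 0.18, 0.14, 0.11, 0.11 and 0.36 TPM in libraries 1 to 5 of the labelled knockout group. Every labelled knockout library was below every control, with the lowest control at 0.56 TPM and the highest labelled knockout, library 5, at 0.36 TPM. The means were 1.13 ± 0.594 and 0.179 ± 0.106 TPM (SD, n = 5 each), from 379 and 70 counts in all. The log2 fold change was -2.40 ± 0.43 (SE), which is 5.28-fold lower, with an adjusted p of 0.0253 by edgeR. Slc22a3 is a low-abundance transcript in liver.

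**Figure D2:**
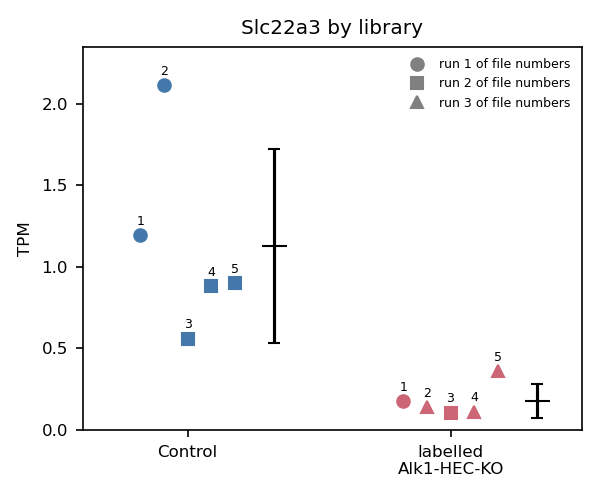
TPM of Slc22a3 in each library, with library numbers beside the points, symbols for the 3 runs of consecutive file numbers, and a bar for mean ± SD of each group. All labelled Alk1-HEC-KO points, at most 0.36 TPM, lie below all control points, at least 0.56 TPM.

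The call of Slc22a3 was near the threshold, and leaving out single libraries ended it. The adjusted p rose above 0.05 without control library 1 (0.08), 2 (0.0796) or 5 (0.0583) and without labelled knockout library 1 (0.0532), 2 (0.0696), 3 (0.0778) or 4 (0.0834), all by edgeR. Without labelled knockout library 5 the log2 fold change of Slc22a3 was -2.99 (adjusted p 0.00238 by edgeR), and without the libraries with Saa1 above 1000 TPM, that library among them, it was -3.03 (adjusted p 0.0162 by edgeR). The log2 fold change stayed below 0 in all 24 alternatives, and DESeq2 gave an adjusted p of 6.9e-06. With the run of consecutive file numbers as a covariate, the log2 fold change was -2.97 (adjusted p 0.169 by edgeR), and without the libraries with Fos above 20 TPM it was -1.97 (adjusted p 0.228 by edgeR). The libraries left out for Fos are control libraries 1 and 2, both of run 1. These controls had the highest Slc22a3 levels, at 1.20 and 2.11 TPM.

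The file numbers fall into 3 runs, whose meaning the labels do not give. Run 1 holds 2 control and 1 labelled knockout libraries, run 2 holds 3 and 1, and run 3 holds 3 labelled knockout libraries and no control, so run 3 gives no comparison of its own. Slc22a3 in the labelled knockout library was at 10.6% of the mean of its controls in run 1 and at 13.5% in run 2. These values rest on 1 labelled knockout library each and carry no test.

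Plg (plasminogen) overlaps the 3′ end of Slc22a3 on the opposite strand by 426 bases (12418960 to 12419385). Whether counting used strand is not stated. Plg was at 812 ± 228 TPM for controls and 880 ± 172 TPM for labelled knockout libraries (SD, n = 5 each), with a log2 fold change of 0.05 (adjusted p 0.952 by edgeR).

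Marker genes of liver cell types moved between the same groups. Of 18 tested markers of pericentral hepatocytes, the cells around the central vein, 9 were called lower and none higher, and all 18 pointed lower, with a summed level of 5397 to 7019 TPM in controls, against 1458 to 4369 TPM in labelled knockout libraries. Of 10 markers of continuous endothelium, 9 pointed higher, of which 5 were called, and 1 pointed lower (summed level 38.1 to 62.0 against 88.0 to 154 TPM). The marker that pointed lower was Vwf, with a log2 fold change of -1.16 and no call. All 12 Kupffer cell markers pointed higher and none was called (142 to 225 against 225 to 434 TPM). Neither the 15 markers of periportal nor the 11 of pan-hepatocyte identity had a called member, with medians of 0.10 and 0.08. The list of recruited leukocytes had 7 tested markers, all pointing higher, and none called. Acute phase genes had 13 tested members and none called (5519 to 37090 against 6841 to 55910 TPM), and of 9 tested immediate early genes, which mark handling, all pointed lower and none was called (128.5 to 438 against 83.1 to 215 TPM). Stellate cell, cholangiocyte, erythroid and sinusoidal endothelial markers held no call. No marker of these lists was at 0 in all libraries. The part of these cell types in the transporter differences was not tested.

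Carnitine and zwitterion carriers of the Slc22 family showed no call. Slc22a5, the carnitine carrier OCTN2, was at 4.42 ± 1.44 and 5.10 ± 3.44 TPM, and Slc22a4, an ergothioneine carrier, at 1.31 ± 0.351 and 1.22 ± 0.478 TPM (control and labelled knockout, SD, n = 5 each). Slc22a21 had 16 and 18 counts and was untested, and its coding sequence is 90.1% identical to that of Slc22a5.

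Organic anion carriers of the Slc22 family pointed lower without a call. Slc22a30 was at 57.1 to 84.0 TPM for controls and at 26.7 to 80.9 TPM for labelled knockout libraries, so the ranges overlapped. The log2 fold change of Slc22a30 was -0.39 (adjusted p 0.679 by edgeR). It changed sign, to 0.064 with the run of file numbers as a covariate and 0.073 without the third run. Its coding sequence is 98.8% identical to that of Slc22a28, with 431 identical bases in a row, and counts may be shared between the pair. Summed over both, the level was 73.8 ± 14.0 TPM in controls, against 60.1 ± 26.0 TPM in labelled knockout libraries (SD, n = 5 each). Slc22a7 (OAT2) was at 21.2 ± 9.43 and 14.7 ± 8.23 TPM with a log2 fold change of -0.65 ± 0.42 (SE) and an adjusted p of 0.717 by edgeR.

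Slc22a27, a member of the same gene group that the filter left out, was detected in controls alone. It was at 0.127, 0.111, 0.0571, 0.0668 and 0.184 TPM in control libraries 1 to 5 and listed at 0 in the 5 labelled knockout libraries. The counts were 19 against 0, so it met the minimum of 10 counts through the controls alone, and these values are given as a description. Its coding sequence is 91.8% identical to that of Slc22a30, which is far more abundant. It was chosen for the text after its values were seen.

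Slc22 members without a settled substrate were led by Slc22a18, an imprinted gene, at 95.8 ± 19.9 TPM for controls and 87.9 ± 20.2 TPM for labelled knockout libraries (SD, n = 5 each). Its log2 fold change was -0.22 (adjusted p 0.741 by edgeR). Slc22a23 and Slc22a15 also pointed lower, at -0.45 and -0.16. Counting every role, 9 of the 10 tested Slc22 genes pointed lower, with a median of -0.42 and 2 called.

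The hepatocyte organic anion transporting polypeptides all pointed lower, and none was called by edgeR. Summed over Slco1b2, Slco1a1, Slco2b1 and Slco1a4, the level was 367 ± 99.7 TPM in controls, against 260.5 ± 87.0 TPM in labelled knockout libraries (SD, n = 5 each), with a median log2 fold change of -0.57. Slco1b2 (chromosome 6, 141629518 to 141686646), the mouse counterpart of the human OATP1B carriers of bilirubin conjugates and statins, was at 215, 263, 168, 148 and 183 TPM in control libraries 1 to 5. In labelled knockout libraries 1 to 5 it was at 137, 202, 130, 105 and 77.4 TPM. Labelled knockout library 2 stood above 3 of the controls and the other 4 stood below all controls. The log2 fold change was -0.70 ± 0.19 (SE) with an adjusted p of 0.235 by edgeR and 0.0337 by DESeq2. DESeq2 called 3 members lower, Slc22a3 and Slco1b2 among them, and called 0.544% of all genes it tested lower. Within runs, Slco1b2 was at 57.3% of controls in run 1 and at 78.3% in run 2.

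The other hepatocyte carriers of this group overlapped between the groups. Slco1a1, a male-biased carrier of steroid and bile acid conjugates, was at 78.2 to 162 TPM for controls and at 28.8 to 105 TPM for labelled knockout libraries (log2 fold change -0.55, adjusted p 0.583 by edgeR). On the TPM scale it was at 73.7% of controls in run 1 and at 125% in run 2. In log2 CPM the labelled knockout library of run 2, at 8.17, lay within the range of its controls, 7.83 to 8.39. Slco1a4, a digoxin carrier, ran from 7.17 to 41.2 TPM in controls, against 2.35 to 23.8 TPM in labelled knockout libraries. Slco2b1, a carrier of sulfated steroids, was at 48.8 ± 11.9 and 41.3 ± 13.2 TPM (SD, n = 5 each). In all 4 genes of this group the lowest level among the 10 libraries was that of labelled knockout library 5. The prostaglandin carrier Slco2a1 was at 13.6 ± 2.81 and 15.1 ± 7.04 TPM.

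The canalicular exporters, which fill the bile, pointed lower in 8 of 8 tested genes with a median log2 fold change of -0.32 and no call. Their summed level was 308 ± 40.1 TPM for controls and 288 ± 55.9 TPM for labelled knockout libraries (SD, n = 5 each), a difference smaller than the spread. Abcb11, the bile salt export pump, varied little on the TPM scale, at 107 ± 5.57 and 105 ± 10.4 TPM, while its count-based log2 fold change was -0.23 ± 0.16 (SE). Abcc2 (MRP2), which exports bilirubin glucuronides, ran from 58.1 to 104.5 TPM in controls, against 36.2 to 90.3 TPM in labelled knockout libraries. Abcb4, the phosphatidylcholine floppase, was at 27.0 to 50.4 TPM and at 21.9 to 64.8 TPM. The ranges of both genes overlapped.

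The sterol exporter is a heterodimer of Abcg5 and Abcg8. Abcg5 was at 30.5 ± 6.54 and 30.5 ± 11.3 TPM, and Abcg8 at 27.9 ± 7.48 and 27.7 ± 10.5 TPM (control and labelled knockout, SD, n = 5 each). The pair were at like levels and both had a log2 fold change of -0.11, which became 0.13 without the libraries with Saa1 above 1000 TPM. Without labelled knockout library 5 alone, Abcg5 was at 0.057 and Abcg8 at 0.025. With the run of file numbers as a covariate, they were at 0.23 and 0.159. Their annotated spans overlap on opposite strands of chromosome 17 (Abcg5 to 84683011, Abcg8 from 84676302), and whether their transcripts share sequence was not tested. Abcg2 (BCRP), an exporter of sulfate conjugates and porphyrins, was at 27.7 ± 7.30 and 22.6 ± 7.60 TPM.

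The P-glycoprotein genes Abcb1a and Abcb1b were both under 2 TPM in every library. Abcb1b was at 0.49, 0.28, 0.32, 0.39 and 1.12 TPM in control libraries 1 to 5 and at 0.60, 0.24, 0.13, 0.47 and 0.21 TPM in libraries 1 to 5 of the labelled knockout group. In TPM the groups overlapped, whereas in log2 CPM they did not, with 122 and 64 counts behind them. The log2 fold change was -1.03 ± 0.31 (SE) with an adjusted p of 0.299 by edgeR. On the TPM scale the level was at 154% of controls in run 1 and at 22.0% in run 2. In log2 CPM the labelled knockout library of run 1 was below its controls, at -0.53 against 0.16 and 0.05. Coding sequences of the pair are 88.0% identical, so counts may be shared. Abcb1a was at 0.824 ± 0.431 and 0.549 ± 0.263 TPM (SD, n = 5 each).

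**Figure D3:**
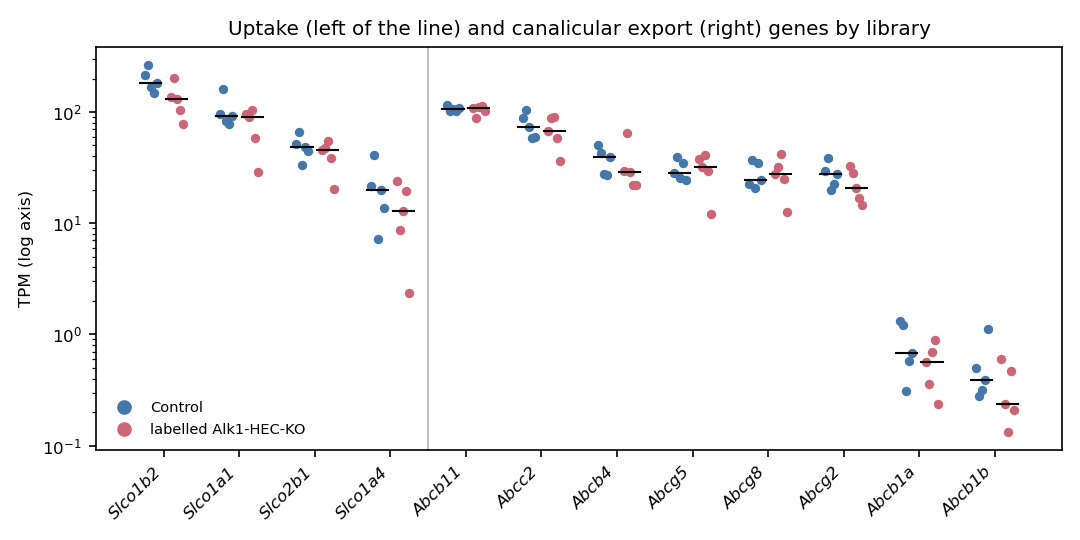
TPM on a log axis of 4 hepatocyte uptake genes and 8 canalicular export genes in each library, with a black line at each group median. For Slco1b2, 1 labelled Alk1-HEC-KO point at 202 TPM lies among the controls and 4 lie below them, while Abcb11 stays between 87.5 and 115 TPM in all 10 libraries.

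Exporters of the Abcc family outside the canaliculus held no call. Abcc3 (MRP3), which returns conjugates to blood, was at 44.1 ± 14.0 and 35.8 ± 12.7 TPM with a log2 fold change of -0.52 (adjusted p 0.63 by edgeR). Abcc6, which drives the release of ATP from hepatocytes, was at 26.2 ± 3.78 and 25.0 ± 9.79 TPM (SD, n = 5 each). Abcc1, Abcc4, Abcc5 and Abcc10 were each under 2 TPM on average. Abcc9, a sulfonylurea receptor subunit of potassium channels in muscle and mural cells, was at 1.26 ± 0.318 and 1.35 ± 0.609 TPM. Abcc8, the other sulfonylurea receptor gene, was at 0 counts in all libraries.

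Of the cellular cholesterol exporters, Abcg1 had the smallest p among members that pointed higher. Abcg1, which hands cholesterol to high-density lipoprotein, was at 0.89, 0.85, 0.40, 0.86 and 0.76 TPM in control libraries 1 to 5 and at 1.18, 1.16, 1.60, 1.94 and 0.74 TPM in libraries 1 to 5 of the labelled knockout group. Labelled knockout library 5 was within the control range and the other 4 were above it. The log2 fold change was 0.67 ± 0.24 (SE) and the adjusted p 0.46 by edgeR. Abca1, which lipidates apolipoprotein A-I, was at 10.1 ± 3.43 and 9.96 ± 4.33 TPM.

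Among the other Abca genes, Abca6, Abca8a, Abca8b and Abca9 lie side by side on chromosome 11 (109932190 to 110251776). Abca6 was at 21.5 ± 7.76 and 21.4 ± 6.20 TPM and Abca8a at 17.9 ± 5.32 and 16.2 ± 8.83 TPM (SD, n = 5 each). Abca8a and Abca8b had log2 fold changes of -0.39 and -0.38, and Abca9, at 0.286 ± 0.0833 and 0.420 ± 0.105 TPM, one of 0.46. None of the 9 tested Abca genes was called, and their median was -0.10. Abcg3, a rodent gene, had the highest log2 fold change of the tested members at 0.95 ± 0.43 (SE, adjusted p 0.583 by edgeR), from 84 and 170 counts.

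Organelle and ribosome members held no call. Abcd3, the peroxisomal importer of branched-chain acyl groups and bile acid precursors, was at 79.0 to 158 TPM for controls and 43.2 to 123 TPM for labelled knockout libraries (log2 fold change -0.27, adjusted p 0.752 by edgeR). Abcd4, of lysosomal cobalamin transport, was at 2.74 ± 0.329 and 3.73 ± 1.22 TPM (SD, n = 5 each). In mitochondria, Abcb10 had a log2 fold change of -0.32 ± 0.13 (SE, adjusted p 0.525 by edgeR) and the porphyrin transporter Abcb6 one of -0.05, or 0.02 when scaled by library totals alone. The ribosome recycling factor Abce1 and the translation factors Abcf1, Abcf2 and Abcf3 lay between -0.06 and 0.08, with Abce1 at 0.02 when scaled by library totals alone.

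**Figure D4:**
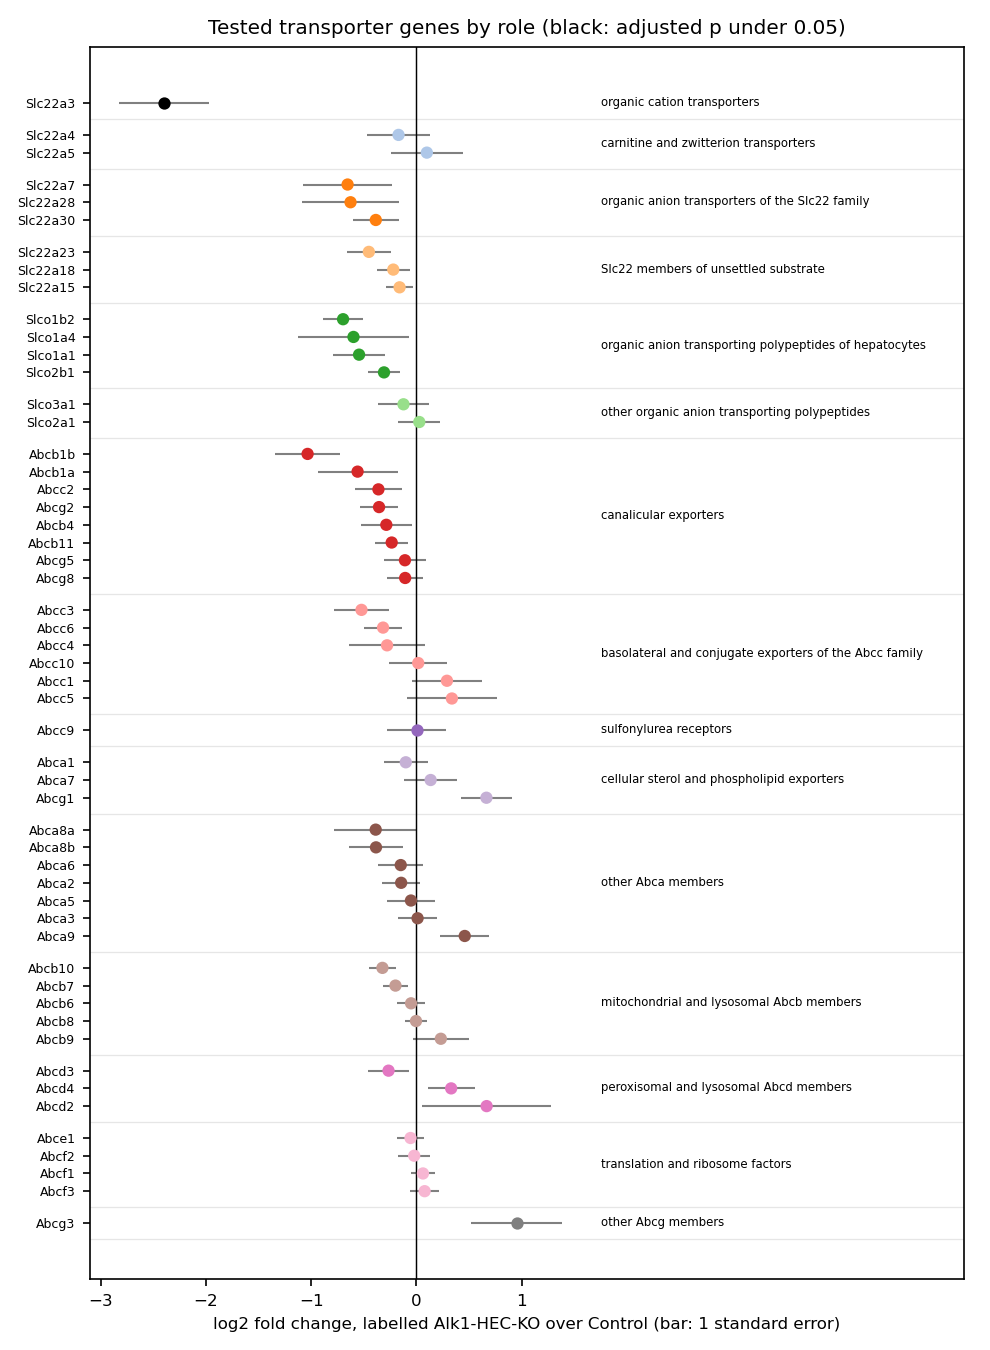
Log2 fold change (labelled Alk1-HEC-KO over control) of 53 tested members by role, with bars of 1 standard error. Slc22a3 at -2.40 is called and drawn in black, and the 4 Abce and Abcf genes lie closest to 0 as a group.

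Seen library by library, the labelled knockout libraries were not alike. In log2 CPM, Slc22a3 was below its mean over the 10 libraries in labelled knockout libraries 1 to 4 and above it in library 5. In TPM, library 5 was also below the mean of this gene, at 0.36 against 0.65 TPM. Slco1a4, Slc22a28 and Abca8a were far below their means in labelled knockout library 5. Abcd2, a peroxisomal transporter, was high and low in both groups, with 2.31 ± 1.70 TPM in controls, against 3.90 ± 2.24 TPM in labelled knockout libraries (SD, n = 5 each).

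**Figure D5:**
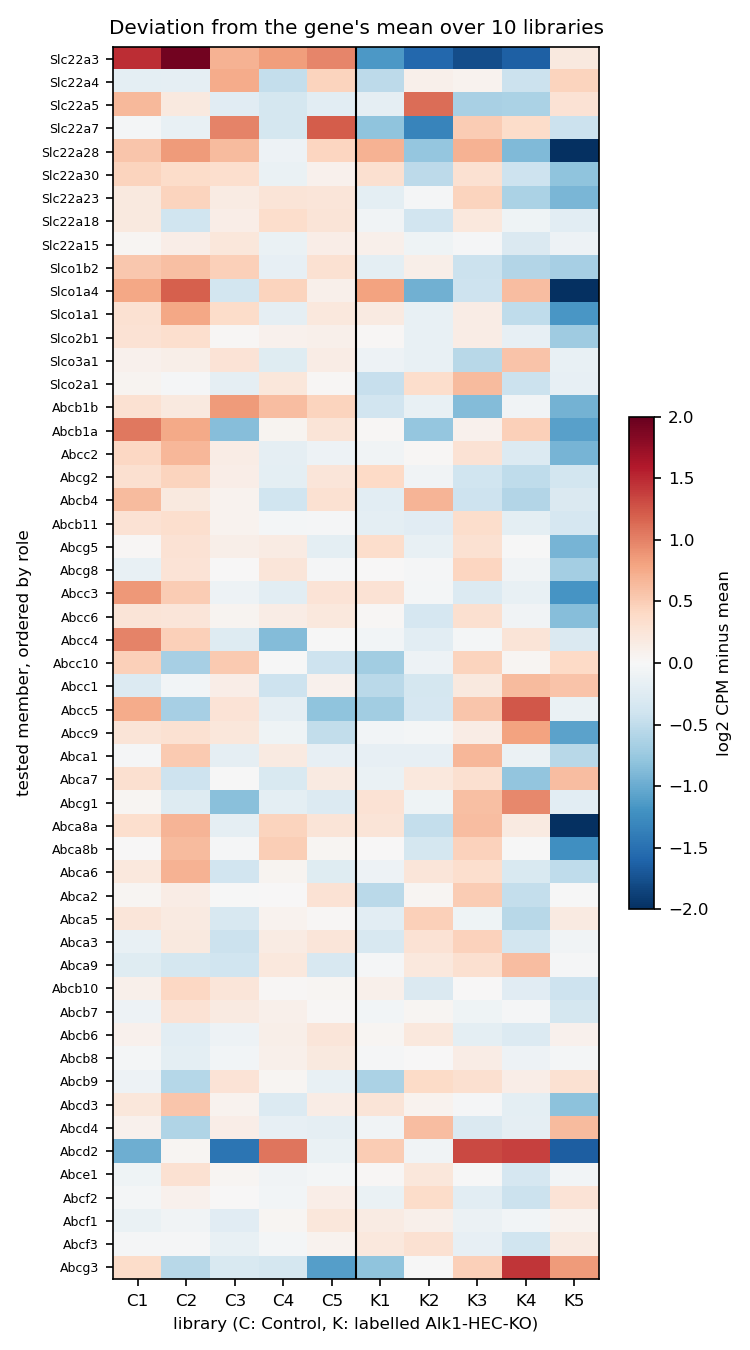
Log2 CPM of 53 tested members minus each gene's mean over the 10 libraries, with members ordered by role and colours cut at -2 and 2. Among these rows only Slc22a3 and Abcb1b separate C from K libraries without overlap, and K5 holds the lowest value in 24 rows.

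Genes known to act with these transporters showed no call either. Of 27 tested transcription factors and receptors that regulate transporter genes, 19 pointed lower and 8 higher, with a median log2 fold change of -0.07. The smallest p-values were those of Ahr, the aryl hydrocarbon receptor (-0.89 ± 0.26, adjusted p 0.292 by edgeR), and Nr1i3, the constitutive androstane receptor (-0.65 ± 0.26, adjusted p 0.519 by edgeR, SE). Ahr was at 2.59 to 7.77 TPM for controls and at 1.28 to 3.64 TPM for labelled knockout libraries, which overlap. Of 30 tested bile acid and drug transporters of other families, 25 pointed lower and 5 higher, with a median of -0.18. Slc16a10, an aromatic amino acid carrier, had a log2 fold change of -0.81 ± 0.19 (adjusted p 0.147 by edgeR) and Slc17a4, an organic anion carrier, one of -0.76 ± 0.24 (adjusted p 0.326 by edgeR, SE).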

How the data were processed

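RNA of whole mouse liver was measured in 10 libraries, 5 per group. The authors deposited estimated counts and TPM per gene, with versioned Ensembl IDs, and both were used. They trimmed with Trim Galore 0.6.4 and used kallisto 0.4.6 and GRCm38.p6, per the submitters' processing notes, and the summing to genes and any use of strand are not given in the sources used here. Symbols and coordinates came from GENCODE M21 (GRCm38), which matched 55144 IDs, and the 241 others held at most 0.013% of a library. Of the nonzero estimated counts 38.3% were whole (tolerance 1e-06), and rounding all of them moved library totals by at most 0.0008%.

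Genes passing filterByExpr (12872) were scaled by TMM and tested with the robust quasi-likelihood fit of edgeR 4.0.16 (R 4.3.3), group as the only term, adjusted by Benjamini-Hochberg. The biological coefficient of variation was 0.272. log2 CPM used the same TMM scaling and a prior count of 2. Alternatives used DESeq2 1.42.0, limma 3.58.1 (voom, and on log2(TPM + 1) and log2(TPM + 0.1)), other scalings and filters, leaving out libraries, the replicate number and the run of file numbers. Coding sequences were aligned with MAFFT 7.526. The edgeR fit was tested on simulated data with known fold changes, set only in genes with more counts in all than Slc22a3. Recovery of a change at the count level of Slc22a3 was thus not checked.

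The rule for named genes takes called members, the 3 most abundant members and the 2 with the smallest p per family, all members of the cation, hepatocyte anion, canalicular and sulfonylurea roles, and from the other transporter, regulator and partner lists the 2 genes with the smallest p. Other members are named with values to complete a role, after those values were seen. The members and lists were chosen with earlier results of these data known. Same-numbered libraries correlated at -0.10 to 0.28 in their deviations, so the numbers were not taken as pairs. The 2 most alike libraries correlated at 0.978 in log2 CPM, and all were counted as separate. Some items that the rule names are not reported here.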

Additional observations from a re-analysis of the deposited data

Results flagged for a closer look

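Outlying libraries were looked for in 68 checks, 34 members in each group of 5, by the gap of the extreme library to its neighbour as a share of the group's range. Chance alone gives such a result in about 1 in 20 checks. For Abca9, control library 4 stood above the other controls with a gap of 0.733 of the range, at 1.21 log2 CPM against 0.60 to 0.77. For Abcb11, labelled knockout library 3 stood above the others with a gap of 0.779, at 8.62 log2 CPM against 7.93 to 8.08, while in TPM it lay inside their range, at 110 against 87.5 to 114 TPM.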

How the results depend on the processing

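The count of members called lower, 2 by the edgeR test, was 3 by DESeq2. It was 1 with upper quartile scaling, with limma on log2(TPM + 1) and on log2(TPM + 0.1), with the replicate block and without the libraries with Saa1 above 1000 TPM. It was 0 with the run of file numbers as a covariate, without the third run and without the libraries with Fos above 20 TPM. Leaving out each library in turn gave 0 to 2 members lower. No alternative called a member higher. Over all genes, 22 lower and 24 higher became 70 and 82 by DESeq2, 3 and 2 with the run as a covariate, and 10 and 8 without the third run. They became 10 and 7 without the libraries high in Fos, and 11 higher without those high in Saa1. With limma on log2(TPM + 1) 13 were lower. With the replicate block 24 were lower and 16 higher. Leaving out each library gave 15 to 43 lower and 18 to 40 higher, both highest without labelled knockout library 1. The cause of these shifts was not tested. Of the same-numbered libraries, those numbered 1 and 5 correlated best with their own number and the other 3 did not.

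Among the 34 named members, 736 of 815 values from the alternatives kept their sign and side of the threshold, 24 lost the call, 1 gained it and 54 changed sign uncalled, in 11 members whose log2 fold change was at most 0.39 in size. None reversed a call. A call could be lost only in the 2 called members, and Slc22a3 kept its call in 14 of 24 alternatives. The other named members were uncalled at the outset, so most of the 736 are values that stayed uncalled. Of 192 family medians recomputed, 2 moved beyond the spread between libraries, both of the Abcg family, to 0.23 with the run as a covariate and 0.24 without the third run. With 5 libraries per group, low transcripts such as Slc22a27 and Abcb1b rest on few counts.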

Other observations

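Partner genes outside the transport families also held no called member. Of 19 tested genes of the apical membrane and its scaffold, 6 pointed lower and 13 higher (median log2 fold change 0.03). Moesin (Msn), which links membranes to actin, was at 3.34 ± 0.999 TPM in controls, against 5.53 ± 1.97 TPM in labelled knockout libraries (SD, n = 5 each), with a log2 fold change of 0.67 and an adjusted p of 0.403 by edgeR. The scaffold gene Slc9a3r2 had 0.57 (adjusted p 0.551 by edgeR). Of 21 tested partners of sterol and lipid export, 10 pointed higher and 11 lower, with a median of -0.04. Soat1, which esterifies cholesterol, had a log2 fold change of 0.59 (adjusted p 0.585 by edgeR), and Lipg, endothelial lipase, one of -1.72 (adjusted p 0.598 by edgeR). The antigen peptide transporter genes Tap1 and Tap2, ABC proteins with other symbols, had 0.62 (adjusted p 0.629 by edgeR) and 0.18 (adjusted p 0.805 by edgeR).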
